A study of Mus musculus with 4 samples.

Results

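Cytotoxic granules hold the pore-forming protein perforin, the serine proteases called granzymes and the proteins that pack and release them, and 10 genes for such proteins were followed in the uterus of pregnant WT and Qa-2- mice. They are Prf1, Gzma, Gzmb, Gzmc, Gzmd, Gzme, Gzmf, Gzmg, Srgn and Nkg7, out of 55421 genes counted in each library. The 10 genes were chosen by their symbols from a list drawn up when their counts and CPM (counts divided by library size) in these 4 libraries, within and between genotypes, were already known, so that these values are given as a description and carry no test. All 10 reached at least 1 CPM in at least 2 libraries, the filter that left 14492 genes, called the tested genes here.

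The study compared late pregnancy in mice with and without the non-classical MHC class I molecule Qa-2. Uteri were taken at E18.5 from 2 pregnant WT mice (strain C57BL/6J) and 2 pregnant Qa-2- mice (strain B6.Cg-H2b3/FlaCmwJ, also called B6.K1), each mated within its own strain as a young adult, and no uterus without pregnancy was sequenced. The Qa-2- strain is an H2 congenic strain that arose spontaneously in crosses of B6.A-H2-T18a and B6.AK-H2k and not an engineered deletion. Each library came from a small weighed portion of frozen uterine tissue of 1 mouse, and the study does not say which part of the uterus it was. In such tissue, fewer cells of a type and less RNA per cell cannot be told apart. Nor can a difference between mice be told apart from one between the parts sampled. With 2 mice per group the spread between them is the one measure of error.

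A cytotoxic lymphocyte stores perforin and granzymes in secretory lysosomes and releases them towards a bound target cell. Perforin opens the target's membrane, granzymes enter and cleave proteins in it, serglycin is the proteoglycan that holds the positively charged proteases in the granule, and Nkg7 is a membrane protein of the granule. In the mouse, natural killer (NK) cells of the pregnant uterus are known for their large granules, and the granzyme genes beside Gzmb on chromosome 14 form a rodent-specific series of copies.

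Gzmc, Gzmd, Gzme, Gzmf and Gzmg lie within the 144.6 kb between Gzme and Gzmb, and the sequence before their starts shows how closely related they are. The RefSeq table of promoters (GRCm38.p6) held an entry for each of the 10 genes. The 250 bases before the start are printed for these 5 genes, and for Gzmb, which had a smaller ratio between the WT libraries than any of these 5, all on the minus strand and read 5′ to 3′. Capitals mark the longest run that the 5 have in common, of 20 bases.
Gzmc: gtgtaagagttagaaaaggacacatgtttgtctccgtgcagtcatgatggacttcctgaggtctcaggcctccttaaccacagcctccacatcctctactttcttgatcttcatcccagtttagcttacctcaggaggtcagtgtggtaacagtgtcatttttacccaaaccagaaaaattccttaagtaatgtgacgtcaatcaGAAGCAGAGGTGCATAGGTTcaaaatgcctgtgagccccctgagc
Gzmd: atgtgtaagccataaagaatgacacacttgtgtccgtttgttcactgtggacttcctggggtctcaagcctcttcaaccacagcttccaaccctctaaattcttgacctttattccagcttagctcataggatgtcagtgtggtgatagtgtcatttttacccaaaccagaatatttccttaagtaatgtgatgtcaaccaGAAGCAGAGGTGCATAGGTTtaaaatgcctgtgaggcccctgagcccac
Gzme: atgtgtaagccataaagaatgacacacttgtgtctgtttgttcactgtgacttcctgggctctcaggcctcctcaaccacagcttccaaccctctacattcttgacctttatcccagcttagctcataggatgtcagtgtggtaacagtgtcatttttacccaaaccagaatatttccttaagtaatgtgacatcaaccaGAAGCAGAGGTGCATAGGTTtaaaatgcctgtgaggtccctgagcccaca
Gzmf: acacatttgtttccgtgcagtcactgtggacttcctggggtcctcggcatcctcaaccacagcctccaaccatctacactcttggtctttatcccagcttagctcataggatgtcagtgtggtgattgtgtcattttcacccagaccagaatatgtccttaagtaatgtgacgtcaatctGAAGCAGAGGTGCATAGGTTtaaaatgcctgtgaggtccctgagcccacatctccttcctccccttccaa
Gzmg: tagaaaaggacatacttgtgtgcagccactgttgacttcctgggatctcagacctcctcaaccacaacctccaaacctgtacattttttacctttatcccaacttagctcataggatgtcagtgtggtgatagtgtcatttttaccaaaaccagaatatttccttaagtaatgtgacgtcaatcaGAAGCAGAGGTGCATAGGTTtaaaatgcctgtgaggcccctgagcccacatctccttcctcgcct
Gzmb: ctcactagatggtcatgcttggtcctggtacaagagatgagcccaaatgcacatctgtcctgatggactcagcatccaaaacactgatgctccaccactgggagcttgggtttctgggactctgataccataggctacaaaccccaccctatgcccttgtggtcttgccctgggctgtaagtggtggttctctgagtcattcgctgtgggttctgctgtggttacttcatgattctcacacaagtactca
The stretches are chr14:56234658-56234907 for Gzmc, chr14:56132594-56132843 for Gzmd, chr14:56120626-56120875 for Gzme, chr14:56211408-56211657 for Gzmf, chr14:56159580-56159829 for Gzmg and chr14:56262335-56262584 for Gzmb. The run begins between 45 bases (Gzmc) and 70 bases (Gzmf) before the start, and it occurs on either strand in 5 of the 32851 promoters of the table (0.0152%), which are these 5. Gzmd and Gzme had the most similar promoters, with 94.8% identity, and the other pairs of the 5 had 70.2% or more. Gzmb shared 44.1% to 47.2% with them. Just before the run, Gzmc, Gzmf and Gzmg have the 8 letters TGACGTCA, the palindrome of a cAMP response element, which 1.55% of all promoters of this length hold. At the same place Gzmd has C4T and Gzme has G5A, counted from 1 at the first base of TGACGTCA. The hexamer TGTGGT, the core of a Runx motif, was found on one strand or the other in 9 of the 10 genes and in 14% of all promoters. The exception was Srgn at the start used. Since Gzmc to Gzmg are related copies, the 9 are not independent promoters. The letters TGANTCA (AP-1) occurred in Gzmb, against 6.75% of promoters, and AGGTGTGA (T-box) and TTCNNNGAA (STAT) in Nkg7, against 1.12% and 7.02%. For Srgn, with a pair of RefSeq starts, the first was used, and the stretch before the second does hold TGTGGT on one strand or the other.

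WT replicate 1 stood apart from the other 3 libraries in these genes, so that the log2 fold changes of the 10 genes and the medians of the gene lists are given with and without it. Perforin (Prf1, chromosome 10, 61297833-61304680, plus strand) had 3140 and 90 counts in the WT libraries and 47 and 159 in the Qa-2- libraries, a sequence of WT replicates 1 and 2 and Qa-2- replicates 1 and 2 that is kept for all values below. As CPM on library sizes scaled by TMM, a factor that removes differences in composition, these were 78.2, 2.39, 1.32 and 4.55. The 2 WT libraries thus differed 32.8-fold, and the Qa-2- libraries lay on both sides of WT replicate 2. Qa-2- replicate 2 was 3.43-fold over Qa-2- replicate 1.

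**Figure D1:**
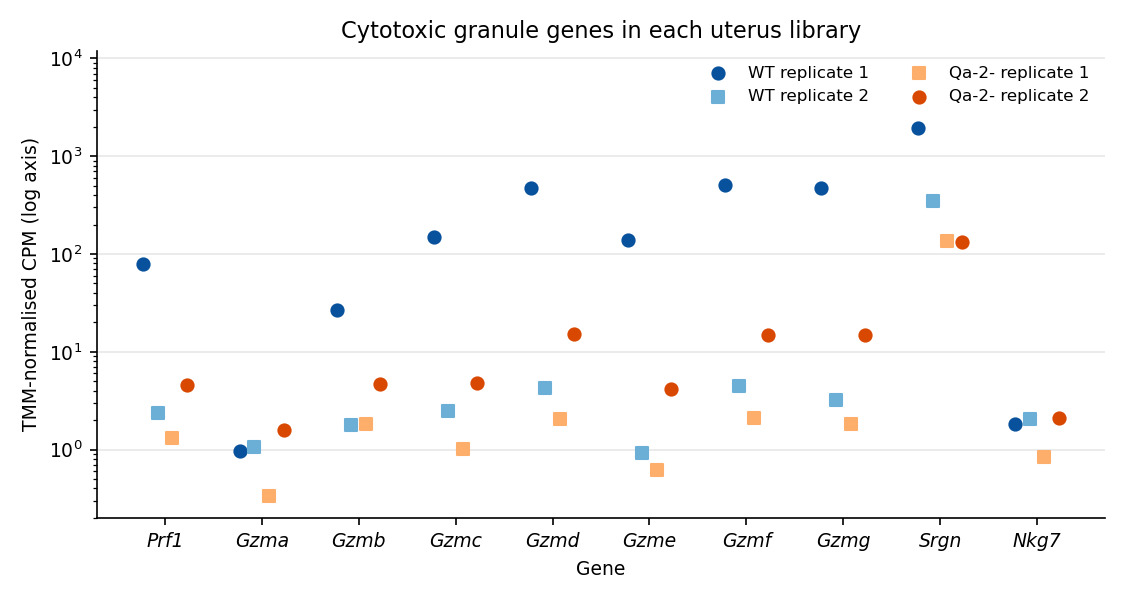
TMM-normalised CPM (log axis) of the 10 cytotoxic granule genes, with 1 point per library, WT in blue and Qa-2- in orange. For Prf1 and Gzmb to Gzmg the WT replicate 1 point lies far above the other 3, of which Qa-2- replicate 2 is the highest, whereas Gzma and Nkg7 stay between 0.338 and 2.12 CPM and Srgn is higher in both WT libraries.

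Gzma and Gzmb are the granzymes best known from T and NK cells of other tissues, and here they differed from each other. Gzma (chromosome 13, 113093825-113100981, minus strand), a trypsin-like protease, had 39 and 40 counts in the WT libraries and 12 and 56 in the Qa-2- libraries, or 0.972, 1.06, 0.338 and 1.6 CPM. Its WT libraries were nearly equal, the ratio of replicate 1 to replicate 2 being 0.916, and the Qa-2- values enclosed them. Gzmb (chromosome 14, 56258838-56262260, minus strand), which cleaves after aspartate, had 1082, 67, 65 and 162 counts, or 27.0, 1.78, 1.83 and 4.63 CPM. WT replicate 1 was 15.2-fold over WT replicate 2. The exact 95% Poisson intervals of WT replicate 2 (1.38 to 2.26 CPM) and Qa-2- replicate 1 (1.41 to 2.33 CPM) overlap, so these neighbours did not differ beyond counting error, which is all such intervals cover.

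Gzmf, Gzmd and Gzmg had the largest counts of the granzymes in WT replicate 1, WT replicate 2 and Qa-2- replicate 2, while in Qa-2- replicate 1 Gzmg (64 counts) and Gzmb (65 counts) were level. Gzmf (56205263-56211417) had 20481, 168, 75 and 513 counts, or 510.2, 4.45, 2.11 and 14.7 CPM. Gzmd (56129556-56132608) had 19054, 159, 73 and 536 counts, or 474.7, 4.22, 2.06 and 15.3 CPM. Gzmg (56156582-56159579) had 18902, 122, 64 and 514 counts, or 470.9, 3.23, 1.80 and 14.7 CPM. In all 3 the high library was WT replicate 1, at 112.6-fold to 145.6-fold over WT replicate 2, and Qa-2- replicate 2 was the next.

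Gzmc and Gzme were lower and had the same order. Gzmc (56231441-56234656) had 6001, 93, 36 and 169 counts, or 149.5, 2.47, 1.01 and 4.83 CPM. Gzme (56117626-56120625) had 5560, 35, 22 and 146 counts, or 138.5, 0.928, 0.620 and 4.17 CPM. WT replicate 1 exceeded WT replicate 2 by 60.6-fold for Gzmc and by 149.3-fold for Gzme, which was the largest ratio of the 10 genes. For Gzme the Poisson intervals of WT replicate 2 (0.646 to 1.29 CPM) and Qa-2- replicate 1 (0.388 to 0.938 CPM) overlap, while for Gzmc, Gzmd, Gzmf, Gzmg and Prf1 they do not.

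The proportions of the 5 neighbours differed far less between libraries than their level. Together Gzmc to Gzmg had 69998 and 577 counts in WT and 270 and 1878 in Qa-2-, which is 1744, 15.3, 7.61 and 53.7 CPM. Gzmd made up 27.0% to 28.5% of these counts, Gzmf 27.3% to 29.3% and Gzme 6.07% to 8.15%. Gzmc made up 8.57% in WT replicate 1 (95% Wilson interval 8.37% to 8.78%) and 16.1% in WT replicate 2 (13.3% to 19.3%), with 13.3% (9.79% to 17.9%) and 9.0% (7.79% to 10.4%) in Qa-2- replicates 1 and 2. Its share in the 2 libraries with the lowest totals thus lay above that in WT replicate 1 beyond these intervals, and that of Gzmg was lower in WT replicate 2 (21.1%, 18.0% to 24.7%) than in WT replicate 1 (27.0%, 26.7% to 27.3%).

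**Figure D2:**
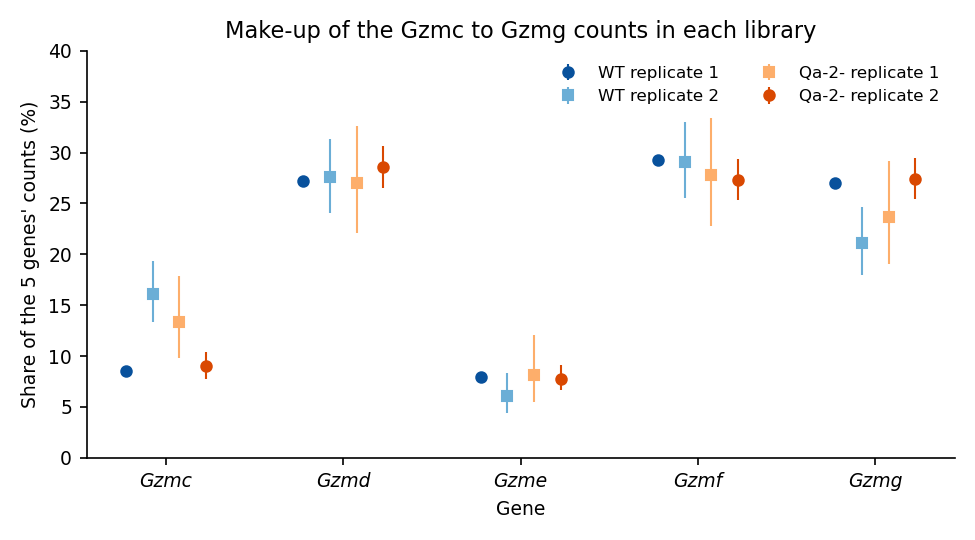
Share of the Gzmc to Gzmg counts taken by each of the 5 genes in each library, in percent, with 95% Wilson intervals that cover counting error only. The intervals of Gzmd, Gzmf and Gzme overlap between libraries although the totals run from 270 to 69998 counts, while Gzmc ranges from 8.57% to 16.1%.

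Since the copies are similar, reads could be split among them. The longest coding transcripts of Gzmd and Gzme share 90.04% of their letters, pairs among Gzmd, Gzme, Gzmf and Gzmg 82.9% or more, and Gzmc 68.1% to 69.7% with these 4. Of the 100-base windows of the coding transcripts in GENCODE M21, 0.231% of those of Gzmd recur letter for letter in Gzmg and 0.247% of those of Gzmg in Gzmd, and no window of the other 8 genes recurs in another gene. Pairs that mapped to several places were not counted by the authors. With the counts of Gzmd, Gzme, Gzmf and Gzmg summed to a single feature, the log2 fold change (WT over Qa-2-) was 4.86, against 4.78, 4.86, 4.94 and 4.84 for the single genes.

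Serglycin had a pattern of its own, and Nkg7 had that of Gzma. Srgn (chromosome 10, 62493833-62527451, minus strand), which many leukocytes, platelets and endothelial cells also make, had 77633 and 13183 counts in the WT libraries and 4773 and 4681 in the Qa-2- libraries. In CPM these were 1934, 349.5, 134.5 and 133.8, so both WT libraries lay above both Qa-2- libraries, and the WT libraries differed 5.53-fold. The Qa-2- libraries did not differ beyond their Poisson intervals (130.7 to 138.4 and 130.0 to 137.7 CPM). Nkg7 (chromosome 7, 43437073-43438249, plus strand) had 74, 77, 30 and 74 counts, or 1.84, 2.04, 0.845 and 2.12 CPM, without any rise in WT replicate 1 over WT replicate 2 and, as for Gzma, highest in Qa-2- replicate 2 and lowest in Qa-2- replicate 1.

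Per length, in TPM (counts divided by gene length and scaled to a fixed sum over all genes), serglycin was the highest of the 10 in every library, with 2406, 468, 195 and 186 TPM. In WT replicate 1, Gzmf followed at 1517 TPM, Gzmg at 1415 TPM and Gzmd at 1345 TPM, which are ranks 65, 70 and 78 among all genes of that library. The same 3 genes had ranks from 7368 to 8660 for the second WT mouse, 10347 to 10809 for the first Qa-2- mouse and 2822 to 2866 for the second. Gzmd was 509.9 times the TPM of Gzma in WT replicate 1 and 4.15, 6.35 and 9.99 times in the others. Prf1 at 82.7 TPM exceeded Gzmb at 51.3 TPM in WT replicate 1, and it was below Gzmb in each of the other 3 libraries. The levels of the 10 genes thus differed between libraries in their order as well as in their height.

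The differences between mice of a genotype can be set beside those of all tested genes. Of the 10 genes, 8 were at least 2-fold higher in WT replicate 1 than in WT replicate 2, where 4.74% of all tested genes were, and 7 at least 10-fold, where 0.186% were. Gzma and Nkg7 were the exceptions to the first count, and Srgn also to the second. In the Qa-2- group, replicate 2 was at least 2-fold over replicate 1 for 9 of the 10, the exception being Srgn, against a background of 2.53%. These folds lay between 2.50 (Nkg7) and 8.15 (Gzmg). The order WT replicate 1, Qa-2- replicate 2, WT replicate 2, Qa-2- replicate 1 was that of 6 of the 10 (Prf1 and Gzmc to Gzmg) and of 4.53% of the tested genes. All of these counts restate the values that chose the genes.

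**Figure D3:**
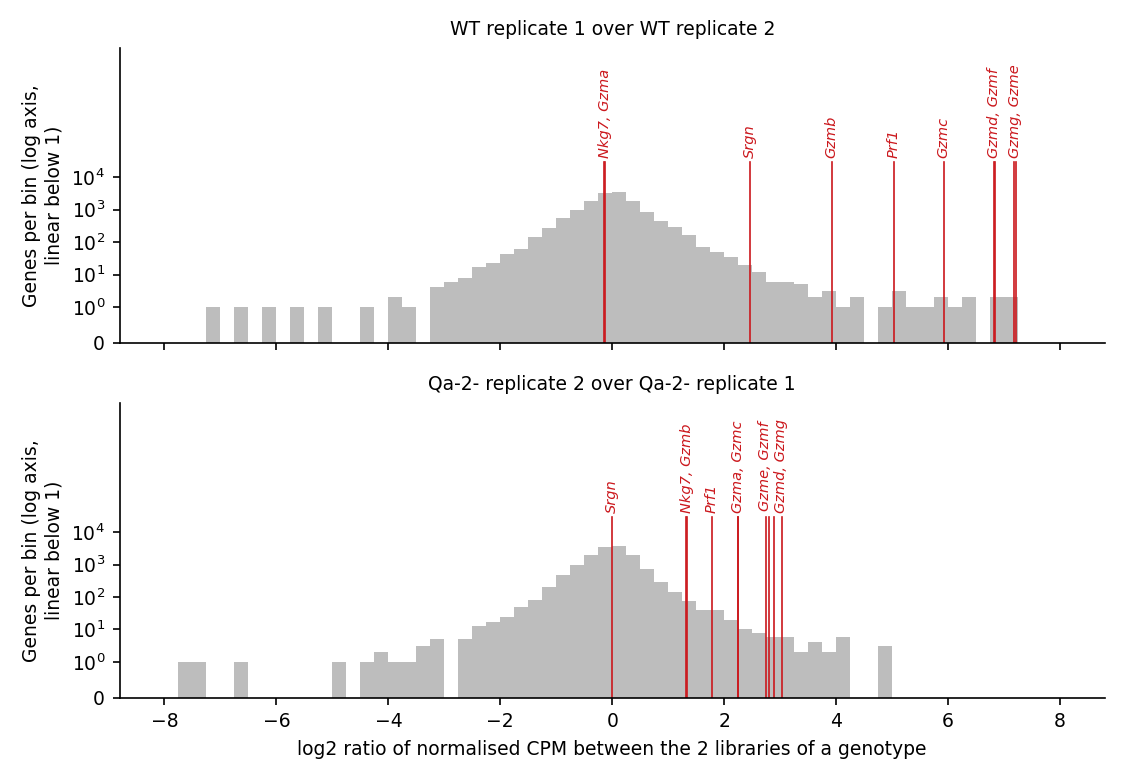
Distribution over the 14492 tested genes (grey, number of genes per bin on a log axis) of the log2 ratio between the 2 libraries of a genotype, with 0.5 counts added, and the ratios of the 10 granule genes as red lines (without added counts). In the WT group 7 of the lines lie beyond a 10-fold ratio, and in the Qa-2- group 9 lie beyond 2-fold.

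WT replicate 1 was at least 2-fold over each of the other libraries in 8 of the 10 genes and 1.13% of the tested genes, and at least 10-fold over each in 6 of the 10 and 0.124% of the tested genes. The latter are 18 genes in all, so the 6 granule genes (Gzmf, Gzmd, Gzmg, Gzmc, Gzme and Prf1) are joined by 12 others. Among these 12, chosen here after their values were seen, are Rbp4, the plasma carrier of retinol, with 977.1 CPM in WT replicate 1 and 7.30 to 14.5 CPM elsewhere, and Cyp11a1, the enzyme that makes pregnenolone from cholesterol, with 179.8 CPM against 2.07 to 8.0 CPM. The granule genes were therefore not alone in standing out in this library.

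Between the genotypes, the mean difference of most granule genes came from WT replicate 1. The log2 fold change (WT over Qa-2-, from edgeR, ± its standard error) was 4.94 ± 2.16 for Gzmf, 4.86 ± 2.16 for Gzme, 4.84 ± 2.23 for Gzmg, 4.78 ± 2.15 for Gzmd and 4.70 ± 1.89 for Gzmc. Prf1 had 3.78 ± 1.59, Srgn 3.09 ± 0.82, Gzmb 2.15 ± 1.22, Nkg7 0.39 ± 0.53 and Gzma 0.07 ± 0.75. The median over the 10 was 4.24, beside 0.01 over all tested genes. Without WT replicate 1 the median was -0.61 and 7 genes had negative values, namely Gzmb at -0.89, Gzmc at -0.27, Gzmd at -1.07, Gzme at -1.40, Gzmf at -0.94, Gzmg at -1.38 and Prf1 at -0.33. Srgn, Nkg7 and Gzma had positive values without it, at 1.35, 0.43 and 0.10.

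The transcriptome-wide comparison called few genes or many depending on the tool. At an adjusted p under 0.05, edgeR's quasi-likelihood test called 0 of the 10 granule genes and 0.0% of the tested genes, and at an unadjusted p under 0.05 it held 1 of the 10 (Srgn), where 8.09% of tested genes were higher and 7.09% lower in WT. DESeq2 called Srgn alone of the 10, where 2.79% of tested genes were called higher and 2.04% lower in WT. With WT replicate 1 left out edgeR called 0 of the 10 and 0.0276% of the tested genes, and with WT replicate 2 left out it called 3 of the 10 (Gzmc, Prf1 and Srgn) and 0.642%. Both WT libraries were above both Qa-2- libraries for Srgn, where 25.4% of tested genes had this order and 24.5% the opposite one, which none of the 10 had. Nothing is read from these counts, since the same contrast chose the genes.

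The 4 libraries held 33286390 to 41041299 counts, with TMM factors near 1 (0.957 to 1.05). A floor of 3 counts corresponds to 0.0731 to 0.0901 CPM, so that the smallest value of a granule gene, 12 counts of Gzma, lies above it. The Qa-2 genes matched the genotype labels, as H2-Q7 had 6318 and 1251 counts in the WT libraries against 4 and 2 in the Qa-2- libraries, and H2-Q6 4204 and 1192 against 3 and 3. Even these genes had adjusted p = 0.23 in edgeR for both. Both were also higher in WT replicate 1 than in WT replicate 2.

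The genes around the granzymes on chromosome 14 did not all follow them. Between Cma1 and Gzmb (55941451-56262260) the annotation has 26 genes, of which 15 had more than 3 counts in a library. Ctsg, for cathepsin G of neutrophils and mast cells, had 304, 18, 32 and 51 counts, and Mcpt8, a protease of basophils, had 44, 2, 0 and 5. Gzmn had 18, 0, 0 and 0 counts. Gm4022 (116, 0, 1 and 2 counts), a predicted gene that overlaps both Gzmn and Gzmf on the other strand, and Gm8961 (105, 0, 0 and 4 counts), which lies between them, were also highest in WT replicate 1 and were named after their values were seen. The mast cell chymase genes at the far end had no such rise, with Mcpt4 at 12, 18.0, 20.3 and 13.9 CPM and Cma1 at 12.4, 19.1, 21.6 and 19.7 CPM. Of the 9 chymase and granzyme neighbours listed beside the 10 genes, 3 were tested and 0 were called by edgeR or DESeq2. Over all tested genes edgeR called none, and DESeq2 2.79% as higher and 2.04% as lower in WT. The median log2 fold change of the 3 was -0.19, or -0.14 without WT replicate 1 and 0.11 without Qa-2- replicate 1.

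**Figure D4:**
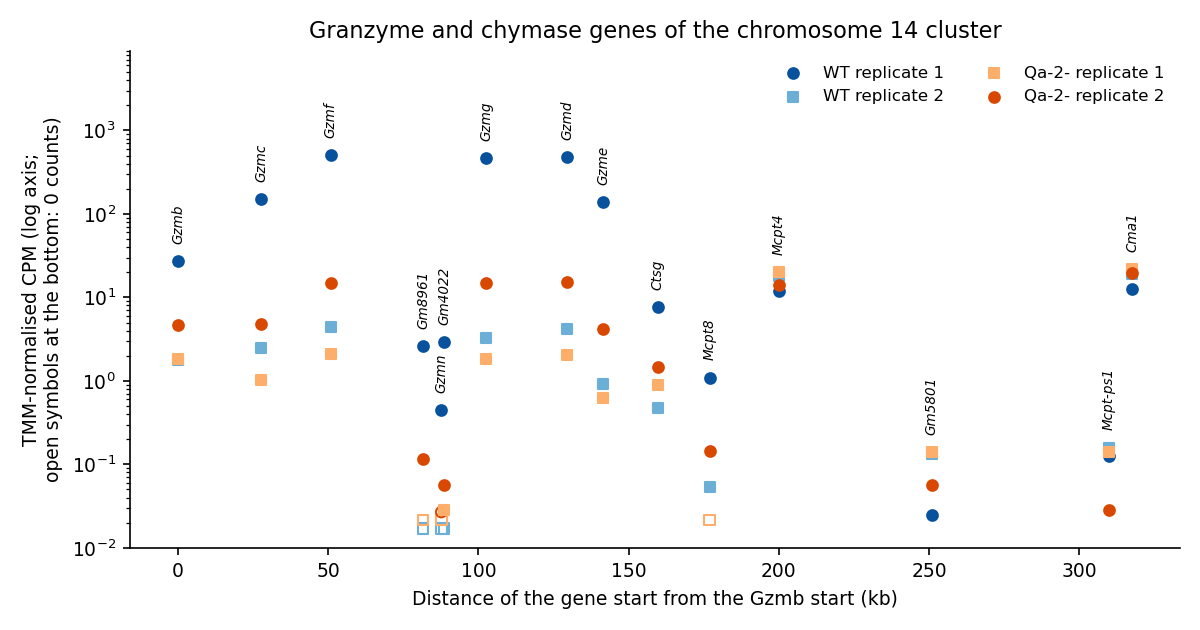
TMM-normalised CPM (log axis) of the 15 genes with more than 3 counts between Cma1 and Gzmb, by the distance of the gene start from the Gzmb start in kb, with 1 point per library and open symbols at the bottom for 0 counts (slightly offset from each other). From Gzmb to Mcpt8 WT replicate 1 is the highest library, whereas at Mcpt4 and Cma1 the 4 libraries lie together.

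Among other genes of the granule, WT replicate 1 was at least 2-fold over each other library for Gzmn and Cst7, which were too low to test, and for none of those tested. Of 12 companions (other granzymes, the proteases and membrane proteins of the granule) 8 were tested and 0 were called by either tool, where edgeR called none of all tested genes and DESeq2 2.79% as higher and 2.04% as lower, with a median log2 fold change of 0.12 (-0.04 without WT replicate 1) from -0.46 (Ctsw) to 0.61 (Lamp1). Ctsc, the protease that activates granzymes by removing their first residues, had 227, 209, 199 and 220 CPM. Cst7, for the granule's protease inhibitor cystatin F, had 142, 21, 9 and 24 counts. Gzmk and Gzmm had at most 4 and 13 counts in any library. Of 8 genes of granule transport and fusion found of 9 listed, all 8 were tested, 0 were called, and the median was -0.02 (-0.10 without WT replicate 1). They ran from -0.60 ± 0.31 (adjusted p = 0.41) for Stxbp2, which helps membranes fuse, and -0.59 ± 0.33 (adjusted p = 0.44) for Unc13d, which primes granules, to 0.82 ± 0.26 (adjusted p = 0.29) for Rab27a, which docks granules at the membrane.

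Granzyme inhibitor genes with enough counts to test had their higher levels in WT. Of 10 serpin genes found of 11 listed, 5 were tested, and both WT libraries were above both Qa-2- libraries in all 5, beside the background of 25.4%. edgeR called 0 of them and had 5 at an unadjusted p under 0.05, where 8.09% of tested genes were higher in WT, while DESeq2 called Serpinb9b, Serpinb6b and Serpina3n as higher, against 2.79% of tested genes. The 5 untested ones had at most 8 counts in any library and none had this order, as for Serpinb9d with 3, 5, 7 and 1. Serpinb9, the mouse inhibitor of granzyme B, had 37.1 and 31.9 CPM in WT and 21.9 and 19.6 CPM in Qa-2-, a log2 difference of 0.73 ± 0.17 (edgeR adjusted p = 0.25). Serpinb9b had 14.3 and 5.06 CPM against 2.23 and 1.03 CPM, and Serpina3n 41.1 and 28.5 CPM against 10.6 and 15.7 CPM. Serpinb6b was highest in WT replicate 2, with 63.6 and 111.4 CPM in WT and 36.2 and 15.8 CPM in Qa-2-. The median of the 5 was 1.41, and without WT replicate 1 it was 1.09, so that the difference of these 5, unlike that of Gzmb to Gzmg, did not rest on that library.

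Other means of killing were little expressed or had another pattern. Of the 4 genes for killing ligands and cytokines 1 was tested, Tnfsf10 (TRAIL), with 26.9, 27.6, 24.3 and 71.2 CPM and thus a single high library, Qa-2- replicate 2. Its log2 fold change was -0.81, or -0.82 without WT replicate 1 and 0.16 without Qa-2- replicate 2, and neither tool called it. Fasl had 23, 17, 10 and 20 counts and Ifng 11, 11, 3 and 1, with both WT libraries above both Qa-2- libraries for Ifng, and neither passed the filter.

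Among the signals known to arm NK cells and their transcription factors, some genes were highest in the same libraries as Gzmb to Gzmg and others were not. Of 13 genes of the IL-15, IL-12 and IL-18 pathways 10 were tested, edgeR called 0, and DESeq2 called 2, both lower in WT (Il15ra and Stat5a) where 2.04% of tested genes were, with a median log2 fold change of -0.35, or -0.33 without WT replicate 1. Il15 itself had 6.25, 6.68, 6.31 and 6.03 CPM, its receptor chain Il15ra 5.43, 8.54, 16.2 and 14.6 CPM, and Stat5a 22.2, 21.2, 37.1 and 58.7 CPM. Il2rb, the signalling chain of the IL-15 receptor on NK cells, had 12.4, 3.23, 4.31 and 11.6 CPM. Its 2 highest libraries were those of Gzmb to Gzmg, WT replicate 1 and Qa-2- replicate 2. They were nearly level for Il2rb, whereas WT replicate 1 was 5.82-fold over Qa-2- replicate 2 for Gzmb and more for Gzmc to Gzmg. Il12rb1, a chain of the IL-12 receptor, had 49, 20, 9 and 9 counts and was thus at least 2-fold higher in WT replicate 1 than in each other library. Of 10 transcription factors of NK cells 9 were tested, with a median of 0.34 (0.16 without WT replicate 1 and 0.79 without Qa-2- replicate 2), 0 calls in edgeR and 1 in DESeq2 (Ets1, higher in WT, as were 2.79% of tested genes). Eomes had 56, 14, 13 and 36 counts and Tbx21 10, 3, 6 and 17, again with the 2 highest values in WT replicate 1 and Qa-2- replicate 2, though at few counts. Tox had 191, 18, 37 and 53 counts, with the same 2 libraries highest and WT replicate 1 at least 2-fold over each other. Of the 10 factors WT replicate 1 was the highest library in 3, and Prdm1 (Blimp-1) had the lowest log2 fold change, -0.85, with both WT libraries below both Qa-2- libraries.

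Several markers that define NK cells were near the low end of detection and did not have the height of Gzmb to Gzmg in WT replicate 1. Ncr1, the receptor NKp46, had 9, 13, 23 and 32 counts, lower in both WT libraries. Klrb1c (NK1.1) had 18, 33, 18 and 43 counts, Klrd1 (CD94) 35, 23, 30 and 58, and Klre1 27, 25, 13 and 41. The highest of these 4 markers was in each case Qa-2- replicate 2 and not WT replicate 1, which is also so for Gzma (39, 40, 12 and 56 counts) at similar counts. With Il2rb and Eomes the 6 defining genes summed to 16.0, 6.10, 7.04 and 17.6 CPM, a 2.62-fold ratio between the WT libraries where Gzmc to Gzmg had 114.0-fold. Most of this sum was Il2rb in every library. Since these markers and the rest of the NK list were not alike in pattern, the 10 genes are named here by their granule and not by a cell type.

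Some other NK receptors were highest in WT replicate 1. Of the 27 genes of NK identity 11 were tested and 0 were called by either tool. Among all tested genes, edgeR called none and DESeq2 called 2.79% as higher and 2.04% as lower in WT. The median of the 11 was 0.18, or -0.68 without WT replicate 1 and -0.24 without Qa-2- replicate 1. In 7 of the 27 WT replicate 1 was at least 2-fold over each other library, but of these Cd244a alone passed the filter, so that the share of tested genes does not apply to this count. Named after their values were seen, these include Klrg1 (157, 2, 8 and 10 counts), Sh2d1b2 (155, 10, 3 and 1), Cd96 (83, 4, 9 and 15) and Cd244a (236, 38, 32 and 84). Apart from Itga1 and Itga2, which other cells of the uterus express, the 25 remaining genes summed to 45.0, 17.0, 16.4 and 35.5 CPM. The 9 of these 25 that were tested had a median log2 fold change of -0.03.

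Markers of other cells that carry granules differed less between the WT libraries in their sums than Gzmb to Gzmg. T cell genes summed to 13.0, 11.7, 10.5 and 13.4 CPM over 15 genes, with Cd3e at 15 to 20 counts and Cd8a at 1 to 19. Mast cell and basophil genes summed to 61.8, 87.1, 97.9 and 82.2 CPM over 11, lowest in WT replicate 1, neutrophil genes to 5.97 to 10.2 CPM over 8, B cell genes to 3.69 to 7.0 CPM over 5 and platelet genes to 27.7 to 39.7 CPM over 6. Of the 5, 7, 2, 2 and 3 genes tested in these lists neither tool called any, where DESeq2 called 2.79% of all tested genes higher and 2.04% lower and edgeR none, and their median log2 fold changes were 0.13, -0.21, 0.67, 0.23 and -0.50, or -0.39, 0.04, 0.50, 0.46 and -0.46 without WT replicate 1. Without Qa-2- replicate 1 the median of the mast cell and basophil genes was 0.11, and without WT replicate 2 that of the B cell genes was -0.12. That of the neutrophil genes was 0.37 without Qa-2- replicate 1 and 1.35 without Qa-2- replicate 2. When no filter was used, the median of the platelet genes was 0.12. General leukocyte genes summed to 176, 212, 159 and 156 CPM over 5 genes, with 0 calls and a median of 0.46 (0.48 without WT replicate 1). No list of leukocyte markers had a ratio between the WT libraries near that of Gzmc to Gzmg.

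**Figure D5:**
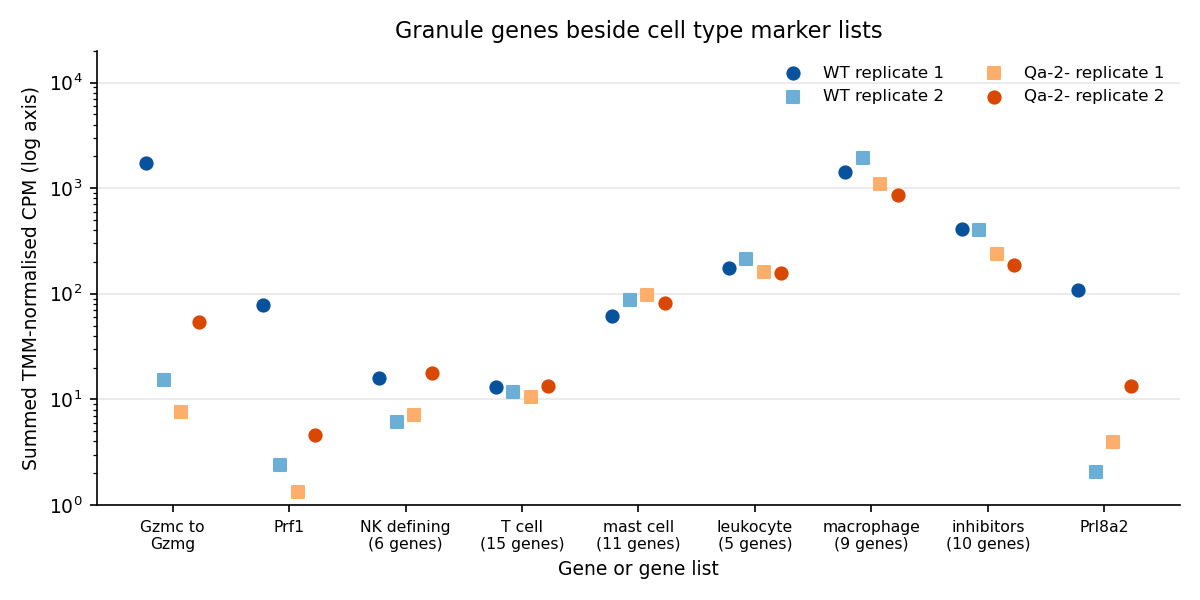
Summed TMM-normalised CPM (log axis) of Gzmc to Gzmg, of Prf1, of marker lists and of Prl8a2 in each library, with 1 point per library. The granule genes and Prl8a2 spread over more than a 10-fold range with WT replicate 1 on top, while the NK, T cell, mast cell, leukocyte and macrophage lists and the inhibitors each stay within a 3-fold range.

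Other tissue markers differed between the libraries, and their part in the granule values was not tested. Both WT libraries were above both Qa-2- libraries in 6 of 9 macrophage genes, 4 of 4 endothelial genes and 5 of 5 globin and haem genes of red cells, where 25.4% of tested genes had this order. DESeq2 called 4, 4 and 5 of these as higher, against 2.79% of tested genes, and edgeR 0, with medians of 0.76, 0.96 and 2.41 (1.0, 1.01 and 2.88 without WT replicate 1). For the genes of red cells the median without WT replicate 2 was 1.55. Smooth muscle genes summed to 19864, 34596, 18464 and 9551 CPM (median 0.91, or 1.21 without WT replicate 1, Des called by DESeq2) and epithelial genes to 1628, 869, 2145 and 2162 CPM (median -0.83, or -1.36 without it, 0 calls). Yolk sac genes were highest in Qa-2- replicate 1 (8.42, 45.4, 493.6 and 25.1 CPM, median -2.50, or -2.41 without WT replicate 1 and 0.24 without Qa-2- replicate 1), and trophoblast genes in WT replicate 2 (0.399, 20.3, 3.61 and 0.172 CPM), each with 0 calls. Of the 10 trophoblast genes 1 was tested, Tpbpa, a gene of the spongiotrophoblast, with a log2 fold change of 1.10, or 2.06 without WT replicate 1 and -4.04 without WT replicate 2. WT replicate 1 had the lowest yolk sac and low trophoblast values. Immediate early genes summed to 399, 630, 473 and 339 CPM, with 0 calls and a median of 0.28, or 0.36 without that library, -0.34 without WT replicate 2 and -0.10 without Qa-2- replicate 2.

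Decidual genes summed to 700, 665, 568 and 481 CPM, with a median of 0.33 over 7 (0.31 without WT replicate 1). Neither tool called any of the 7, where edgeR called none of all tested genes and DESeq2 2.79% as higher and 2.04% as lower. Prl8a2, a prolactin-family hormone of the decidua, had 109.3 and 2.04 CPM in WT and 3.92 and 13.3 CPM in Qa-2-. Its libraries of highest and second highest level are those of Gzmb to Gzmg. Of the 7 decidual genes WT replicate 1 was the highest library in 3, and at least 2-fold over each other library for Prl8a2 alone. Hand2, with 56.5, 71.8, 48.9 and 34 CPM, was highest in WT replicate 2.

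The nearest neighbours of Gzmc to Gzmg in profile are given as a list whose length, 10 genes, was set beforehand. Likeness was measured over the 4 libraries as the root mean square distance between a gene's centred log2 CPM and that of the 5 genes' sum, and it describes 4 points that share their depth and tissue make-up. Among genes outside the 10, the nearest was Olr1, the receptor for oxidised LDL, at 0.72 log2 units, with 362.9, 5.70, 4.96 and 10.1 CPM. It was followed by Ptgds (0.86), Gatm (0.87), Rbp4 (0.88), Erv3 (0.95), Prl8a2 (1.12), Mrgprg (1.21), Cldn11 (1.31), Lbp (1.31) and Cyp11a1 (1.36). The 5 genes make up the sum itself, so their own distances are not set beside those of other genes. Of the other granule genes, Prf1 lay at 0.79, Gzmb at 1.46, Srgn at 1.85, Gzma at 2.78 and Nkg7 at 2.81.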

How the data were processed

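RNA-seq of 4 uteri, 2 WT and 2 Qa-2-, was analysed from counts of read pairs per gene, which the authors deposited without normalization. Per the file headers, featureCounts 2.0.0 counted pairs in reverse-strand mode, required both mates aligned with quality 3 or more, and skipped pairs that hit several positions or genes. The submitters' processing notes name STAR 2.7.3a and GRCm38.p6. Symbols came from GENCODE M21 for 55154 of 55421 genes, 54899 with the same span. Groups and replicate numbers follow the sample titles. Replicates of a genotype were checked for being 1 library counted again and differed beyond sampling noise (chi-square per gene 188.4 and 117.8). The members and gene lists were chosen with earlier results of these data known.

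The filter stated by the study was applied (1 CPM or more in 2 samples or more), which left 14492 genes here, fewer than the study states. TMM normalization and the quasi-likelihood test of edgeR 4.0.16 (glmQLFit, legacy fit) in R 4.3.3 compared WT with Qa-2-, with Benjamini-Hochberg adjustment over these genes. Adjusted p-values are from this test unless DESeq2 1.42.0 is named. A standard error is the log2 fold change divided by the square root of F. With 2 against 2 libraries no exact permutation test can go below p = 0.33, so none was run. The alternatives were DESeq2, 2 other scalings, 3 other filters, the newer quasi-likelihood fit, a replicate block, summed paralogs and leaving out each library. Intervals are exact Poisson (counts) or Wilson (shares). In simulated counts edgeR called 93 of 200 changed genes (46.5%), 0 in the wrong direction, and 11 unchanged ones, and DESeq2 133 (66.5%) and 38.

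TPM used the gene lengths deposited with the counts. Named are the 10 genes, the genes of a list (for more than 8 tested genes the 3 highest and 3 lowest log2 fold changes and those called), the defining NK and T cell markers, the 2 Qa-2 genes and the 10 nearest profiles, though not each gene that the rule allows is printed. Vamp7 and Serpinb9h are not analysed here, and listed granzyme substrates are not reported here. Promoter and transcript identities are from global alignments with Biopython 1.88, and motifs were searched on both strands of the 250 bases before each RefSeq start (32851 promoters, GRCm38.p6).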

Additional observations from a re-analysis of the deposited data

How the results depend on the processing

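Leaving out WT replicate 1 reversed the sign of the log2 fold change of Gzmb to Gzmg and Prf1, leaving out Qa-2- replicate 1 that of Gzma and Nkg7, and leaving out WT replicate 2 that of Gzma. Over the 4 fits that each leave out a library, where a lone library is assumed to vary like the other group, the log2 fold change ran from -0.65 to 1.58 for Gzma, from -0.89 to 3.05 for Gzmb, from -0.27 to 6.22 for Gzmc, from -1.07 to 6.86 for Gzmd, from -1.40 to 6.81 for Gzme, from -0.94 to 6.93 for Gzmf, from -1.38 to 7.04 for Gzmg, from -0.33 to 4.92 for Prf1 and from -0.12 to 1.20 for Nkg7, and from 1.35 to 3.85 for Srgn, which kept its sign. Genes higher in WT at an adjusted p under 0.05 ranged from 0 to 88, genes lower from 0 to 5, members called from 0 to 3, members with every WT library above every Qa-2- library from 1 to 9 and members with every WT library below from 0 to 2.

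With library totals alone Gzma turned to -0.040. DESeq2 called 404 genes higher and 296 lower in WT, with 1 member, where edgeR called 0. Without a filter edgeR called 47 higher and 14 lower. The cause of these differences was not tested. Upper-quartile scaling, at least 10 counts in every sample, filterByExpr and the newer fit gave 0 calls and no change of sign in a member. Same-numbered samples deviated in opposite directions (r = -0.37 over 14492 genes), so the replicate numbers do not pair the mice, and the replicate block, with 2 genes higher in WT and no member called, stands here alone. A crossed pairing, chosen after seeing the data, called 0 genes. Of the list medians, 14 moved by more than the spread between replicates when a library was left out and 86 did not, against 2 and 222 under the other settings. Those 2 moved when no filter was used, to 0.92 for the granzyme inhibitors and to 0.12 for the platelet genes. TPM over tested genes were at most 0.761% higher.

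Most granzyme counts outside WT replicate 1 are below 200 per gene, which leaves wide counting intervals there, and 2 mice per group limit any statement on the genotypes.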
